A study of Zea mays with 12 samples.

Results

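Whole seeds of the maize inbred line Q319, the wild type of the series, were profiled by RNA-seq at 10 and at 15 days after pollination (DAP). The comparison described here sets the 3 libraries of 15 DAP against the 3 of 10 DAP, 6 of the 12 libraries of the series. The other 6 come from the transgenic line L100 at the same ages. They entered the filter on low counts, the scaling and the shared estimate of the spread between replicates. They also served to test whether a stage change differed between the lines. The labels name no treatment and do not say which gene L100 carries, how many seeds or plants made up a library, or whether libraries came from separate ears. The p-values therefore measure the spread between these libraries, which may be partly technical.

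The maize kernel is a maternal fruit coat around a triploid endosperm and a small embryo. In the endosperm, a phase of mitosis is followed by endoreduplication and by the synthesis of starch and of zeins, the alcohol-soluble storage proteins that are packed into protein bodies of the endoplasmic reticulum (ER). At the base of the endosperm, a transfer layer with ingrown walls takes up sugar and amino acids from the mother plant. A whole-seed library holds the RNA of all these tissues, so fewer cells of a type and less RNA per cell cannot be told apart in any value given here.

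The 6 libraries held 14014035 to 22370566 counts each, and 28250 to 28986 of the 41430 gene models had a count. The first principal component of the wild-type libraries (58.7% of the variance) separated the stages, and the second (14.1%) separated 15 DAP replicate 1 (-73.4) from 15 DAP replicates 2 and 3 (48.9 and 25.4). Log levels correlated at 0.9616 to 0.9682 between replicates of 10 DAP, at 0.9526 to 0.9684 between those of 15 DAP and at 0.8939 to 0.9193 between stages. Levels are given as CPM (counts scaled to a common library size of 1000000) on the scale of TMM, a normalization that allows for a few very abundant genes. Every named call held without each wild-type library in turn unless the text says otherwise.

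The labelled tissue was checked against marker genes. Not every marker name had a model. Those with one were 5 of 7 names for the transfer layer, 5 of 7 for the embryo, 3 of 5 for the aleurone and 3 of 6 for green maternal tissue. All 6 gene models of endosperm filling (gz27, z1C2, wx1, sh2, bt2 and bt1) were detected in every library, with a summed level of 6464 to 10430 CPM at 10 DAP and 62740 to 78870 CPM at 15 DAP. The 5 transfer layer models summed to 1221 to 1773 CPM and then to 476 to 791 CPM, and one of them, ebe1, had at most 0.162 CPM in any library. The 6 embryo models summed to 291 to 486 and to 916 to 1205 CPM, most of it from ole1 and a glb1 model. Of the 6, 3 rose, 1 fell (kn1) and 2 did not pass. Those 2 were lec1 (log2 fold change -0.49, adjusted p = 0.6) and a second glb1 model. The calls of ole1, glb1 and kn1 depended on single libraries, as given below. The 3 models of the embryo surrounding region summed to 15.2 to 54.5 and to 2.35 to 8.13 CPM. The 3 aleurone models summed to 459 to 589.6 and to 287 to 339.8 CPM, nearly all of it from vpp1. The model c1 was at 0 except for 0.123 CPM in 1 library, and cr4 did not pass (0.13, adjusted p = 0.95). The 3 models of green maternal tissue summed to 3.34 to 4.93 and to 10.9 to 22.98 CPM. Of these pep1 rose (0, 0.0668 and 0.217 to 8.20, 9.74 and 18.5 CPM), a call that ended whichever wild-type library was left out, ssu1 fell (4.11, 3.21 and 3.63 to 1.49, 1.36 and 2.48 CPM), a call that held in 2 of the 6 fits without 1 library, and rca1 did not pass. The part that a changed share of any of these tissues had in the results was not tested.

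Between 10 and 15 DAP, zein genes and the 10 most counted genes took a larger share of the seed's counts. Of 24941 genes tested, 7836 (31.4%) changed at an adjusted p under 0.05 by edgeR's quasi-likelihood test. The number that rose was 4012 (16.1%) and the number that fell was 3824 (15.3%), a split of 51.2% higher among the called genes. Counts of list members below are to be read against these shares. With library totals in place of TMM, the median of all genes moved by -0.32 on the log2 scale, and 1997 genes were higher and 7374 lower (21.3% higher). All changes below are relative to the TMM scale, on which the median log2 fold change of all tested genes was -0.01 with quartiles of -0.49 and 0.46. Without single wild-type libraries the number that rose was 2630 to 3427, with 2630 and 2667 without 10 DAP replicates 1 and 3, and the number that fell was 2829 to 3230.

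From 4-fold up, more genes rose than fell, but not at 2-fold. At least 2-fold changes numbered 3526 (14.1%), with 1727 rising and 1799 falling. At 4-fold or more, 664 genes rose and 563 fell. At 8-fold or more, 336 genes rose and 179 fell, and at 32-fold or more 113 rose and 38 fell. The libraries of the stages did not overlap for 12882 genes, which is 51.6% of all tested genes. At 10 DAP the 10 most counted genes of a library had 4.11% to 4.68% of its counts, which rose to 11.67% to 13.02% at 15 DAP. It took 1364 to 1459 genes to make up 50% of the counts of a 10 DAP library, and 788 to 872 at 15 DAP.

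**Figure D1:**
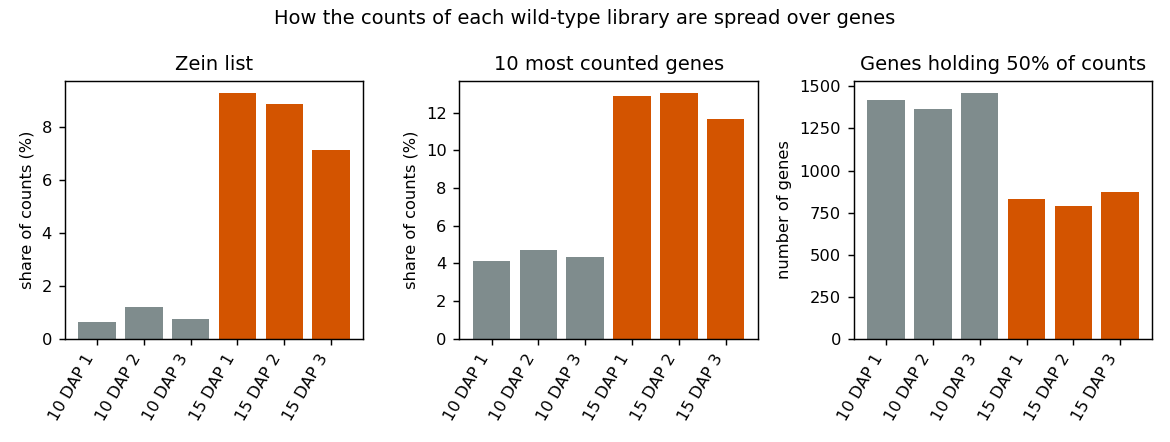
Share of each wild-type library's counts held by the zein list (left) and by its 10 most counted genes (middle). The right panel gives the number of genes that together hold 50% of its counts, and each bar is 1 library. The zein list held 0.629% to 1.20% of the counts in the 10 DAP libraries and 7.10% to 9.25% in those of 15 DAP. The stages did not overlap in any panel.

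The genes with most counts changed with the stage. In CPM, the 10 DAP libraries were led by GRMZM2G469380, which has no name in the reference table, with 8387, 9116 and 9017 CPM, which did not pass the test at 15 DAP (7151, 6429 and 8596 CPM; log2 fold change -0.26, SE 0.23, adjusted p = 0.43). Sorbitol dehydrogenase sdh1 was at 4555, 4712 and 4685 CPM and rose to 12070, 13060 and 14170 CPM (1.49, SE 0.23, adjusted p = 0.00054). The glycine-rich protein gene grp1 rose from 2949, 3030 and 3324 to 7363, 7669 and 8251 CPM (1.32, SE 0.16, adjusted p = 0.00012), and the legumin gene leg1, for a seed globulin, from 1575, 2140 and 1936 to 7986, 7067 and 7639 CPM (2.01, SE 0.38, adjusted p = 0.0025). The gene hag, to which no role is given here, rose from 1398, 2354 and 1629 to 10510, 10630 and 8472 CPM (2.46, SE 0.37, adjusted p = 0.0006). The 10 most counted genes at 15 DAP were gz27, gz16, sdh1, bz15, hag, AF546188.1_FG007, sh1, wx1, grp1 and leg1. AF546188.1_FG007, a model on chromosome 7 that the reference table does not name, rose from 121, 272 and 206 to 10450, 9022 and 9343 CPM (5.59, SE 0.52, adjusted p = 3.7e-05). The sugar-breakdown enzymes gpc4 and aldolase1, among the 10 most counted at 10 DAP, did not pass (-0.06 and -0.41, adjusted p = 0.88 and 0.29).

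Zeins had the largest median change of the 30 gene lists. All 17 tested zein genes rose, against 16.1% of all genes, with a median log2 fold change of 6.26, or of 5.70 when members with 0 counts at 10 DAP are set at the lower bound that 3 counts per library allow. The list has 20 matched models, of which 3 were too low to be tested, and its summed level went from 5768 to 11210 CPM at 10 DAP to 80190 to 106200 CPM at 15 DAP. Reads of near-identical zein copies may have been divided among models, so single alpha-zein values are uncertain.

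The cysteine-rich gamma-zeins, which form the shell of the protein body, were already present at 10 DAP. The gene gz27 (GRMZM2G138727, chr7:120234854-120235839, build B73 RefGen_v3) was at 4057, 7163 and 4400 CPM at 10 DAP and at 52360, 54660 and 43710 CPM at 15 DAP (log2 fold change 3.27, SE 0.47, adjusted p = 0.0004). Its share of a library was 0.442% to 0.765% at 10 DAP and 3.87% to 4.66% at 15 DAP, and on the length-corrected FPKM scale it stood at 11540 and 128200 (means of 3). For gz16 the levels were 565, 1544 and 649 and 18610, 19320 and 12670 CPM (4.20, SE 0.72, adjusted p = 0.0017). The third member, gz50, started far lower, at 11.1, 47.4 and 21.8 CPM, and reached 3175, 2128 and 1746 CPM (6.46, SE 0.85, adjusted p = 0.00041; 7.13 without 10 DAP replicate 2). The beta-zein bz15 rose from 934, 1931 and 1279 to 10900, 12150 and 8037 CPM (2.91, SE 0.50, adjusted p = 0.0014). In the delta class, dzs18 rose from 125, 332 and 178 to 1909, 1400 and 1188 CPM (2.82, SE 0.72, adjusted p = 0.013), a call that ended without 10 DAP replicate 1 or 3 (highest adjusted p = 0.06). In each of these genes 10 DAP replicate 2 was the highest library of its stage, and the stages did not overlap.

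Alpha-zeins, which fill the centre of the protein body, were low at 10 DAP. The model z1C2 (GRMZM2G397687, chr4:21335099-21335890, also named floury2) went from 5.56, 25.7 and 10.4 to 4776, 2900 and 2419 CPM (log2 fold change 7.92, SE 0.90, adjusted p = 0.00018; 8.69 without 10 DAP replicate 2). The model z1A2_1 went from 19.5, 32.7 and 21.7 to 5391, 3252 and 2984 CPM (7.30, SE 0.91, adjusted p = 0.00029) and z1C1_4 from 30.1, 77.5 and 79.04 to 6783, 5825 and 5383 CPM (6.59, SE 0.86, adjusted p = 0.00038). Lower members rose as well, such as z1A1_7 (1.33, 6.21 and 2.38 to 261, 221 and 198 CPM; 6.11, SE 0.44, adjusted p = 1.4e-05; 6.89 without 10 DAP replicate 2) and z1C1_5 (1.52, 3.94 and 3.14 to 52.8, 96.9 and 86 CPM; 4.77, SE 0.78, adjusted p = 0.0014). For 3 models there were 0 counts in every 10 DAP library. Among them z1C1_12 reached 81.3, 12.5 and 20.6 CPM, at least 207-fold higher against 3 counts per library (adjusted p = 0.00078) and at least 89.8-fold without 15 DAP replicate 1; its call ended with voom of limma, as did that of z1A1_2 below. The models z1C1_11 and z1C1_1 stayed at 3.21, 1.17 and 1.26 and at 0.631, 0.74 and 0.505 CPM. The model z1A1_2 had a single count in each 10 DAP library and overlapped between stages (0.0573, 5.55 and 15.1 CPM; adjusted p = 0.026); its call ended whichever 10 DAP library was left out, and without 15 DAP replicate 3 (up to 0.089). On the FPKM scale, gz27 stayed above every alpha-zein model of the list at 15 DAP, the highest of which was z1C1_4 at 12540. AF546188.1_FG007, which has no name and so could not join the list, was at 16470. Zein models without a name would be missing from the list and from its sums.

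**Figure D2:**
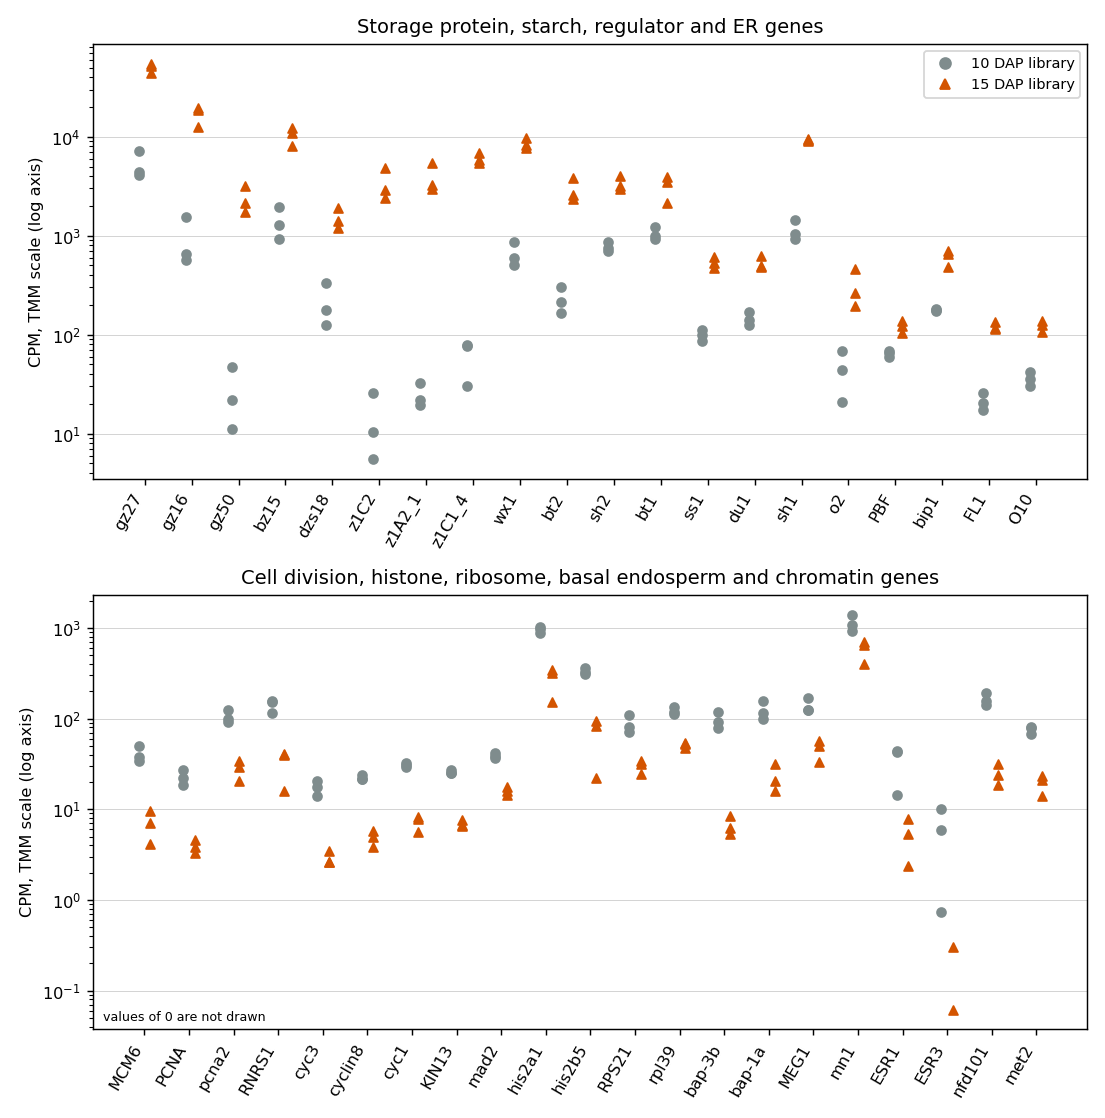
Level of single genes in every wild-type library on a log axis in CPM, with grey circles for 10 DAP and orange triangles for 15 DAP. Storage protein, starch, regulator and ER genes (top) lie higher at 15 DAP, and cell division, histone, ribosome, basal endosperm and chromatin genes (bottom) lie lower, without overlap between the stages for any gene drawn.

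Most starch genes rose, the most in wx1, of amylose synthesis, and bt2, of ADP-glucose supply. Of 20 tested genes, 15 rose, 0 fell and 5 did not pass, with a median of 0.98 (11 higher and 1 lower with library totals). The number that rose was 11 without 10 DAP replicate 1 or 3, 12 without 15 DAP replicate 2, and 14 without 10 DAP replicate 2 or 15 DAP replicate 3. Granule-bound starch synthase, encoded by wx1 (GRMZM2G024993, chr9:23268041-23271684), rose from 511, 863 and 589 CPM at 10 DAP to 8198, 9648 and 7629 CPM at 15 DAP (3.70, SE 0.49, adjusted p = 0.0003). The enzyme ADP-glucose pyrophosphorylase has small and large subunits. The small subunit gene bt2 rose from 213, 306 and 164 to 2591, 3793 and 2353 CPM (3.68, SE 0.58, adjusted p = 0.0011). The large subunit gene sh2 was higher at 10 DAP, 746, 859.5 and 707 CPM, and rose to 2962, 3985 and 3175 CPM (2.13, SE 0.28, adjusted p = 0.00022). Per length, mean levels at 10 DAP were 121 FPKM for bt2 and 391.7 FPKM for sh2, and at 15 DAP they were 1462 and 1558 FPKM. The gene bt1, for the ADP-glucose carrier of the amyloplast envelope, rose from 932, 1212 and 986 to 2130, 3881 and 3450 CPM (1.60, SE 0.40, adjusted p = 0.011).

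The soluble starch synthase genes ss1 (98.2, 110.4 and 86.8 to 466, 615 and 529 CPM; 2.45, SE 0.24, adjusted p = 3.7e-05) and du1 (124, 168 and 139.7 to 619.9, 496 and 483 CPM; 1.89, SE 0.26, adjusted p = 0.00037) rose, as did sugary2 (0.98, adjusted p = 0.017). Of the branching enzyme genes, the ae1 model GRMZM2G032628 rose from 823, 1200 and 972 to 1573, 2203 and 2114 CPM (0.98, SE 0.26, adjusted p = 0.015) and the sbe1 model GRMZM2G088753 from 231, 356 and 285 to 606, 632 and 673 CPM (1.13, SE 0.22, adjusted p = 0.0026). The calls of this ae1 model and of sugary2 ended without 10 DAP replicate 1 or 3 or 15 DAP replicate 2 (highest adjusted p = 0.079 and 0.074) and with library totals. A second model of each name, GRMZM2G039942 for ae1 (-0.27, adjusted p = 0.61) and GRMZM2G088737 for sbe1 (0.06, adjusted p = 0.85), did not pass. The debranching enzyme genes zpu1 (32.7, 35.1 and 34.5 to 73.2, 70.8 and 60.3 CPM, adjusted p = 0.002) and iso2 (1.10, SE 0.19, adjusted p = 0.0013) rose, while iso3 was at 10.2, 16.9 and 12.99 and at 10.7, 11.2 and 11.5 CPM and did not pass (adjusted p = 0.31). Of further pyrophosphorylase genes, AGP2 did not pass (-0.08, adjusted p = 0.75). Agp2 passed as higher (0.47, adjusted p = 0.014), a call that ended without 10 DAP replicate 1 or 3 (up to 0.082) and with library totals.

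Among genes of sucrose import and cleavage, a sucrose synthase gene rose and a pair of invertase genes fell. Of 13 tested, 4 rose, 2 fell and 7 did not pass, or 46.2% called (2 and 5 with library totals). The number that rose was 2 without 10 DAP replicate 1, and the number that fell was 1 without 15 DAP replicate 2. Sucrose synthase sh1 (GRMZM2G089713, chr9:11500841-11506657) rose from 1038, 1443 and 934 to 8958, 9395 and 9232 CPM (3.01, SE 0.36, adjusted p = 0.00013), and its paralog sus1 was at 1208, 1645 and 1755 and 981, 910.5 and 1240 CPM and did not pass (adjusted p = 0.24). The cell wall invertase gene mn1, which acts in the transfer layer, fell from 1406, 917 and 1093 to 693, 402 and 648 CPM (-0.97, SE 0.28, adjusted p = 0.021); the call ended without 10 DAP replicate 1 or 15 DAP replicate 2 (highest adjusted p = 0.082). The vacuolar invertase gene ivr2 fell from 28.6, 31.1 and 40.3 to 14.6, 11.8 and 11.1 CPM (-1.42, SE 0.21, adjusted p = 0.00048). The fructokinase gene frk1 rose from 42.8, 35.4 and 41.6 to 105, 97.7 and 57.97 CPM (1.12, SE 0.24, adjusted p = 0.0045). The sucrose transporter genes sut1, sut2 and sut4 did not pass (-0.21, 0.21 and -0.37; adjusted p = 0.32, 0.27 and 0.07). Of 16 tested genes of glycolysis, 2 rose, 0 fell and 14 did not pass (1 higher and 2 lower with library totals). That is 12.5% called, against 31.4% of all genes. The number that rose was 0 without 10 DAP replicate 3 and 1 without 10 DAP replicate 1 or 2 or 15 DAP replicate 2 or 3.

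Of 10 tested endosperm regulators, 4 rose (o2, PBF, ohp2 and MRP1), 0 fell and 6 did not pass (2 higher and 1 lower with library totals). That is 40% called, against 31.4% of all genes. The bZIP activator gene o2 rose from 20.9, 43.6 and 68.9 to 457, 262 and 196 CPM (2.78, SE 0.59, adjusted p = 0.0059), with the highest library at 15 DAP replicate 1. The Dof factor gene PBF, whose product binds the prolamin box of zein promoters, rose from 59.5, 68.3 and 65.6 to 105, 137 and 122.8 CPM (0.91, SE 0.15, adjusted p = 0.00089). Of the bZIP genes related to o2, ohp2 rose (0.49, SE 0.11, adjusted p = 0.0054; not with library totals) and ohp1 did not pass (0.08, adjusted p = 0.61). The bHLH gene Opaque11 was at 200.5, 197 and 196 and 181, 216 and 212 CPM and did not pass (adjusted p = 0.9). Nkd1 and Nkd2, zinc finger genes of aleurone and endosperm, did not pass either (0.29 and 0.57; adjusted p = 0.45 and 0.14).

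More genes of ER folding and protein bodies rose than fell. Of 22 tested, 13 rose, 2 fell and 7 did not pass, with a median of 0.53 (8 higher and 4 lower with library totals). The number that rose was 8 without 10 DAP replicate 1 or 3 or 15 DAP replicate 1, 9 without 10 DAP replicate 2 or 15 DAP replicate 2, and 11 without 15 DAP replicate 3. The protein body genes FL1 (17.2, 25.8 and 20.4 to 136, 113 and 118 CPM; 2.53, SE 0.31, adjusted p = 0.00021) and O10 (30.5, 42.4 and 36 to 106, 137 and 126 CPM; 1.76, SE 0.15, adjusted p = 2.2e-05) and the luminal chaperone gene bip1 (179, 181 and 172 to 649, 704 and 483 CPM; 1.79, SE 0.19, adjusted p = 6.2e-05) rose. The most abundant disulfide isomerase gene, pdi, rose from 969, 925 and 955 to 1605, 2741 and 2660 CPM (1.30, SE 0.22, adjusted p = 0.0011), and pdi8 rose by more (1.62, SE 0.21, adjusted p = 0.00024). The relatives pdi2 (-0.98, SE 0.21, adjusted p = 0.0043) and pdi7 (-0.69, SE 0.15, adjusted p = 0.0054) fell. All 4 tested derlin genes, of the ER disposal route, rose, from DER1.2 (0.68, adjusted p = 0.023; kept only without 15 DAP replicate 3, otherwise up to 0.096, and not with library totals) to DER2.2 (1.21, SE 0.13, adjusted p = 7.8e-05). The calreticulin gene crt2 was at 331, 323 and 302 and 286, 228 and 229.7 CPM and did not pass (adjusted p = 0.19).

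Most genes of DNA replication fell. Of 18 tested, 11 fell, 2 rose and 5 did not pass, with a median of -1.28, against 15.3% of all genes that fell (13 lower and 1 higher with library totals). The helicase subunit gene MCM6 fell from 49.98, 34.3 and 38.1 to 4.19, 7.03 and 9.70 CPM (-2.54, SE 0.27, adjusted p = 7.1e-05) and MCM7 from 14.2, 12.03 and 12.1 to 2.52, 3.27 and 4.14 CPM (-1.94, SE 0.21, adjusted p = 7.4e-05). The sliding clamp genes PCNA and pcna2 fell from 27.2, 18.6 and 22.1 to 3.27, 3.88 and 4.54 CPM (-2.54, SE 0.22, adjusted p = 2.1e-05) and from 124, 91.5 and 99.99 to 20.6, 29.6 and 33.8 CPM (-1.91, SE 0.20, adjusted p = 6.4e-05). Small subunit genes of ribonucleotide reductase, which makes deoxynucleotides, fell as well, with RNRS1 going from 156, 114 and 151 to 15.9, 40.9 and 39.8 CPM (-2.13, SE 0.32, adjusted p = 0.00061). The large subunit gene RNRL1, the most abundant of the list, was at 199, 171 and 95.2 and 129, 120 and 152 CPM. It overlapped between the stages and did not pass (-0.21, adjusted p = 0.51). In MCM6, pcna2 and RNRS1 the lowest library was 15 DAP replicate 1. The 2 genes that rose were RBR1 (38.2, 40.4 and 33.6 to 63.5, 53.95 and 63.4 CPM; 0.69, SE 0.12, adjusted p = 0.0012) and RBR2 (0.73, SE 0.18, adjusted p = 0.009; not with library totals), which encode retinoblastoma-related proteins, brakes on entry into replication. Their relative rbr3 fell (34.1, 30 and 32.2 to 5.39, 13.4 and 15.3 CPM; -1.50, SE 0.31, adjusted p = 0.0038).

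About as many mitotic genes fell as did not pass. Of 27 tested, 14 fell, 1 rose and 12 did not pass, with a median of -0.55 (17 lower and 0 higher with library totals). Among cyclins, the drivers of the cell cycle, cyc3 fell from 20.4, 14.1 and 17.5 to 3.50, 2.65 and 2.63 CPM (-2.56, SE 0.22, adjusted p = 2.2e-05). The genes cyclin8 (21.9, 21.5 and 23.7 to 3.84, 4.93 and 5.76 CPM; -2.20, SE 0.20, adjusted p = 2.7e-05) and cyc1 (30.96, 29.3 and 32.1 to 5.62, 8.14 and 7.78 CPM; -2.10, SE 0.18, adjusted p = 2.2e-05) fell as well. The kinesin motor genes KIN13 (-1.90, SE 0.14, adjusted p = 1.1e-05), kin11 (-1.79, SE 0.19, adjusted p = 6.5e-05) and KIN8 (-1.66, SE 0.23, adjusted p = 0.00032) and the spindle checkpoint gene mad2 (38.5, 42.2 and 36.8 to 15.8, 14.6 and 17.7 CPM; -1.29, SE 0.13, adjusted p = 5.6e-05) fell. The kinase gene wee1, whose product delays mitosis, fell too (-1.05, SE 0.19, adjusted p = 0.0015). The cyclin-dependent kinase gene cdc2 (19.5, 19.6 and 17.2 and 18.6, 18.4 and 21.9 CPM; adjusted p = 0.73), the cohesin gene SMC3 (adjusted p = 0.64) and the D-type cyclin gene cycD2 (66.6, 66.5 and 69.1 and 61.4, 65.2 and 62.5 CPM; adjusted p = 0.49) did not pass. The gene that rose was kin9 (0.41, adjusted p = 0.017), a call that ended without 10 DAP replicate 1 or 2 or 15 DAP replicate 1 (up to 0.095) and with library totals. The beta-tubulin genes TUB8 (-2.07, SE 0.19, adjusted p = 3e-05) and tub5 (352, 261 and 309 to 76.8, 99.2 and 119 CPM; -1.64, SE 0.17, adjusted p = 5.4e-05) fell, and the most abundant tubulin gene, TUA1, rose (2179, 2063 and 2209 to 3300, 3394 and 2968 CPM; 0.58, SE 0.12, adjusted p = 0.0041; not with library totals). Of 18 tested tubulin and actin genes, 7 fell and 2 rose (12 and 0 with library totals). The number that fell was 4 without 10 DAP replicate 1 or 3 or 15 DAP replicate 1 or 2, and 1 rose without 10 DAP replicate 1 or 3 or 15 DAP replicate 2.

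Most histone genes fell, and chromatin genes moved both ways. Of 13 tested histone genes, 9 fell, 0 rose and 4 did not pass, with a median of -1.29 (12 lower with library totals). The H2A gene his2a1 fell from 1028, 981 and 892 to 154, 316 and 342 CPM (-1.83, SE 0.26, adjusted p = 0.00034) and the H2B gene his2b5 from 364, 323 and 312 to 21.96, 83.1 and 94.6 CPM (-2.32, SE 0.45, adjusted p = 0.0035). The largest fall was in the H4 model GRMZM2G149178 (67.3, 54.9 and 54.7 to 3.21, 7.34 and 9.95 CPM; -3.10, SE 0.48, adjusted p = 0.00098). In each of the 3, 15 DAP replicate 1 was lower than 15 DAP replicates 2 and 3. Histone copies are similar in sequence, so reads may have been divided among them. The linker histone gene hon101 was at 703, 707 and 649 and 517, 577 and 556 CPM and did not pass (adjusted p = 0.072). Of 55 tested chromatin genes, 17 fell, 8 rose and 30 did not pass (28 lower and 2 higher with library totals); the number that rose was 4 without 10 DAP replicate 1 or 3 or 15 DAP replicate 1, and 5 without 10 DAP replicate 2. The high-mobility-group genes nfd101 (193, 155 and 142 to 18.4, 24.2 and 31.6 CPM; -2.72, SE 0.20, adjusted p = 1.1e-05) and nfd106 (-2.67, SE 0.31, adjusted p = 0.00014) and the DNA methyltransferase gene met2 (79.05, 67.6 and 80.7 to 14.1, 21.1 and 23.4 CPM; -1.96, SE 0.18, adjusted p = 3.1e-05) fell the most. The Polycomb gene fie1 fell (102, 97.1 and 96.3 to 71.97, 54.4 and 59.1 CPM; -0.67, SE 0.14, adjusted p = 0.0032) and mez2, for a histone methyltransferase of the Polycomb group, rose (29.5, 35.4 and 33.2 to 57.3, 58.02 and 49.7 CPM; 0.75, SE 0.11, adjusted p = 0.00038).

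Most ribosomal protein genes, which serve growth in cell mass, fell. Of 28 tested, 18 fell, 1 rose and 9 did not pass, with a median of -0.68 (21 lower and 0 higher with library totals). Their summed level was 6786 to 7313 CPM at 10 DAP and 4575 to 5114 CPM at 15 DAP. The largest falls were in RPS21 (111, 81.6 and 71.7 to 24.3, 31.6 and 34.4 CPM; -1.55, SE 0.21, adjusted p = 0.00024) and rpl39 (-1.24, SE 0.16, adjusted p = 0.00022), and the rps4 model GRMZM2G035017 fell from 699, 654 and 635 to 468, 478 and 476 CPM (-0.48, SE 0.13, adjusted p = 0.012). The exception was rpl19 (0.72, adjusted p = 0.012), whose call ended without 10 DAP replicate 1 or 3 (up to 0.066) and with library totals.

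**Figure D3:**
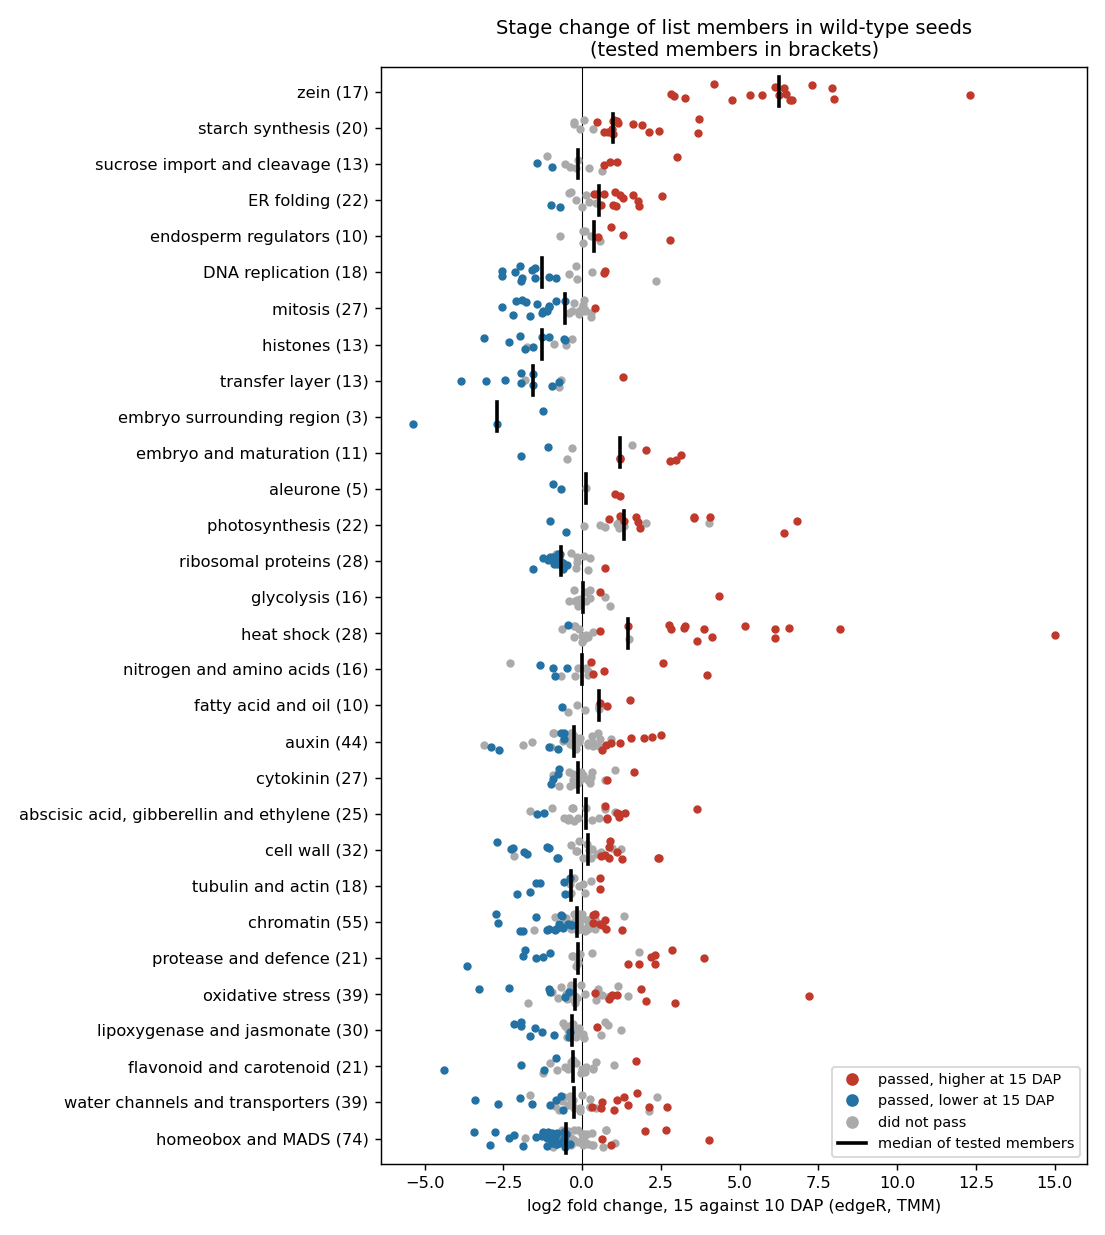
Log2 fold change from 10 to 15 DAP of every tested member of 30 gene lists, 1 dot per gene, coloured by the outcome of the test over all genes; the black bar is the median of the list. Zeins lie furthest to the right (median 6.26), and DNA replication, histones, the transfer layer and the embryo surrounding region lie to the left (medians -1.28, -1.29, -1.57 and -2.69). For the 4 drawn values that come from genes with 0 counts at 10 DAP (3 zeins and HSP18), the fold depends on the prior count.

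Most genes of the transfer layer and of the embryo surrounding region fell. Of 13 tested transfer layer genes, 9 fell, 1 rose and 3 did not pass, with a median of -1.57 (11 lower and 0 higher with library totals). The antifungal-type secreted proteins of the layer were among the largest falls, with bap-3b going from 118, 78.8 and 91.5 to 5.28, 6.29 and 8.38 CPM (-3.85, SE 0.34, adjusted p = 2.7e-05) and bap-1a from 156, 116 and 98.9 to 20.6, 15.8 and 31.5 CPM (-2.45, SE 0.51, adjusted p = 0.0051). The gene ebe2 fell from 8.85, 5.14 and 6.93 to 0.86, 0.802 and 0.859 CPM (-3.04, SE 0.32, adjusted p = 5.5e-05), and MEG1, a maternally expressed gene, from 167, 124 and 126 to 50.4, 32.9 and 56.7 CPM (-1.57, SE 0.26, adjusted p = 0.001). Within the list the fall was unequal. The genes betl3 and betl4 were at 70.5, 76.4 and 56.2 and 53.2, 58 and 60.6 CPM and then at 61.4, 27.1 and 39.9 and 29.7, 32.1 and 41.3 CPM and did not pass (adjusted p = 0.16 and 0.062). A meg2 model, GRMZM2G094054, was at 239, 192 and 41.9 CPM at 10 DAP, with replicate 3 far below the others, and did not pass (adjusted p = 0.14). The gene that rose was MRP1, which encodes the MYB-related activator of this layer, from 0.758, 2.87 and 1.68 to 4.01, 4.75 and 4.44 CPM (1.31, SE 0.43, adjusted p = 0.036); it stayed below 5 CPM, and its call held only without 10 DAP replicate 2 (otherwise up to 0.12) and ended with library totals.

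All 3 tested genes of the embryo surrounding region, which encode small secreted proteins of the endosperm around the embryo, fell. ESR1 (GRMZM2G315601) went from 42.6, 14.4 and 43.7 to 2.35, 5.36 and 7.83 CPM (-2.69, SE 0.57, adjusted p = 0.0051). ESR3 went from 5.88, 0.735 and 9.96 to 0, 0.0617 and 0.303 CPM (-5.36, SE 1.43, adjusted p = 0.016), -4.65 without 10 DAP replicate 3 and -7.21 without 15 DAP replicate 3, and its call ended without 15 DAP replicate 1 or 2 (up to 0.063) and with voom. The call of esr6 (-1.24, adjusted p = 0.018) ended without 10 DAP replicate 3 or 15 DAP replicate 1 or 3 (up to 0.064). The number of 3 was 1 without 15 DAP replicate 1 and 2 without 10 DAP replicate 3 or 15 DAP replicate 2 or 3.

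Among embryo genes, the globulin genes glb2 and glb3 rose. Of 11 tested embryo and maturation genes, 6 rose, 2 fell and 3 did not pass (5 and 2 with library totals), but the number that rose was 2 without 10 DAP replicate 1 and 3 without 10 DAP replicate 3 or 15 DAP replicate 1 or 2. The number that fell was 0 without 10 DAP replicate 2 or 3 or 15 DAP replicate 2, and 1 without 15 DAP replicate 3. Globulins are storage proteins of the embryo, and glb3 rose from 109.6, 160.5 and 109.6 to 947, 706 and 959 CPM (2.78, SE 0.43, adjusted p = 0.00079), and glb2 from 1.33, 6.21 and 2.44 to 20.6, 27.1 and 39.7 CPM (3.15, SE 0.69, adjusted p = 0.0068; 3.91 without 10 DAP replicate 2). The glb1 model GRMZM2G067919 went from 37.6, 77.1 and 64.6 to 159, 324 and 255 CPM (2.04, SE 0.54, adjusted p = 0.017), a call that ended without 10 DAP replicate 1 or 3 or 15 DAP replicate 2 (up to 0.07). A second glb1 model, GRMZM2G067402, was at 0.920 to 3.27 CPM and did not pass (adjusted p = 0.055). The oil body gene ole1 was at 245, 394 and 364 and 729.9, 849 and 735 CPM (1.21, SE 0.39, adjusted p = 0.036), a call that ended whichever wild-type library was left out (up to 0.14) and with library totals. The seed maturation regulator gene vp1 rose from 19.3, 26.99 and 26.1 to 66.2, 54.9 and 46.9 CPM (1.21, SE 0.32, adjusted p = 0.015; not without 10 DAP replicate 1 or 15 DAP replicate 1, up to 0.075). The homeobox gene kn1, which marks the shoot meristem, fell from 4.11, 5.08 and 5.96 to 2.92, 1.23 and 2.98 CPM (-1.08, SE 0.33, adjusted p = 0.028; not without 10 DAP replicate 2 or 3 or 15 DAP replicate 2, up to 0.083, nor with voom). The desaturase model fad2 (GRMZM2G064701), of oil synthesis, rose from 66.4, 88.1 and 86.95 to 237, 246 and 211 CPM (1.53, SE 0.22, adjusted p = 0.00037). A second model of that name, GRMZM2G056252, was more abundant, at 248, 220 and 253 and 244, 405 and 395 CPM. It overlapped between the stages and did not pass (0.53, adjusted p = 0.18). The gene fad6, the plastid counterpart, fell (-0.65, SE 0.16, adjusted p = 0.0082). Of 10 tested genes of fatty acids and oil, 3 rose and 1 fell (1 and 1 with library totals), or 40% called against 31.4% of all genes. The count of higher genes was 1 when any one 10 DAP library or 15 DAP replicate 1 was left out, and 2 without 15 DAP replicate 3. Of the 5 tested aleurone genes 2 rose and 2 fell (1 and 2 with library totals). The number that fell was 0 without 15 DAP replicate 2 and 1 without 10 DAP replicate 1 or 3 or 15 DAP replicate 1 or 3, and 1 rose without 10 DAP replicate 1 or 15 DAP replicate 1. The calpain gene dek1, needed for aleurone fate, rose from 46.9, 50.05 and 46.99 to 112, 86.4 and 95.8 CPM (1.03, SE 0.24, adjusted p = 0.0072; not with library totals). The most abundant member, vpp1, fell (-0.67, SE 0.19, adjusted p = 0.017), a call that ended without 10 DAP replicate 3 or 15 DAP replicate 2 (up to 0.073). The fall of LTP3 (-0.94, SE 0.28, adjusted p = 0.023) ended as a call without 10 DAP replicate 1 or any one 15 DAP library (up to 0.075).

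More heat shock genes rose than did not, with large differences between the libraries of that stage. Of 28 tested, 15 rose, 1 fell (0 when any library other than 15 DAP replicate 1 was left out) and 12 did not pass, with a median of 1.47 (14 higher and 5 lower with library totals). The summed level of the list was 5296 to 5638 CPM at 10 DAP and 23640, 19190 and 12520 CPM in 15 DAP replicates 1, 2 and 3. The disaggregase gene hsp101 went from 14.5, 24.3 and 17.1 to 3013, 1473 and 858 CPM (6.58, SE 0.62, adjusted p = 6e-05; 5.97 without 15 DAP replicate 1). The small heat shock genes hsp22 (89.2, 114 and 81.97 to 1962, 1854 and 1165 CPM; 4.12, SE 0.34, adjusted p = 2.1e-05) and hsp18c (52.8, 34.7 and 24.6 to 1463, 1587 and 1005 CPM; 5.18, SE 0.44, adjusted p = 2.7e-05) rose. The gene HSP18 (GRMZM2G404249) had 0 counts in every 10 DAP library and 263, 324 and 154 CPM at 15 DAP, at least 1340-fold higher against 3 counts per library (adjusted p = 0.0016). The heat stress factor gene Hsf26 rose from 0.316, 0.267 and 0.704 to 132, 222 and 36.1 CPM (8.17, SE 0.78, adjusted p = 6.9e-05; 7.55 without 15 DAP replicate 2) and Hsf03 from 2.08, 2.005 and 0.975 to 29.8, 30.8 and 13.6 CPM (3.88, SE 0.40, adjusted p = 5.4e-05). The most abundant member, the hsp70-4 gene, was at 3121, 3209 and 3407 and 5389, 3810 and 3054 CPM and did not pass (adjusted p = 0.26). The factor genes Hsf01 (-0.25, adjusted p = 0.25) and Hsf12 (-0.22, adjusted p = 0.25) did not pass either. The labels give no temperature or time of day, and the part that collection conditions had in these values was not tested.

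**Figure D4:**
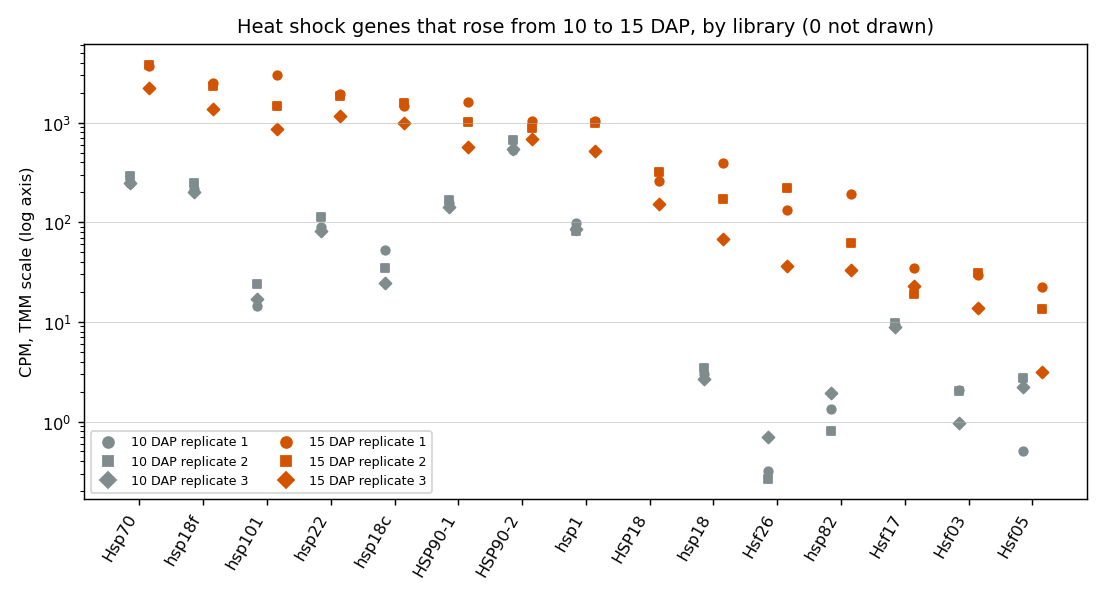
Level in CPM on a log axis of the 15 heat shock genes that rose, in every wild-type library (grey for 10 DAP, orange for 15 DAP, 1 marker shape per replicate). In 14 of the 15 genes 15 DAP replicate 3 is the lowest library of its stage.

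Some of the genes listed by name under photosynthesis and carbon fixation rose. The name does not show whether a gene serves photosynthesis in the seed. Of 22 tested, 11 rose, 2 fell and 9 did not pass (9 and 2 with library totals), but the number that rose was 3 without 10 DAP replicate 1, 4 without 10 DAP replicate 3, and 6 without 10 DAP replicate 2 or 15 DAP replicate 2 or 3. The number that fell was 0 without 15 DAP replicate 1 and 1 without 10 DAP replicate 1 or 3 or 15 DAP replicate 2. The pyruvate phosphate dikinase model GRMZM2G097457 rose from 2154, 3535 and 3200 to 5595, 7211 and 9340 CPM (1.32, SE 0.32, adjusted p = 0.0088; adjusted p = 0.051 without 10 DAP replicate 1), the malic enzyme gene me2 from 259, 337 and 327 to 689.7, 769 and 658 CPM (1.20, SE 0.13, adjusted p = 7.5e-05) and the ferredoxin gene fdx3 from 171, 182 and 167 to 523, 749 and 585 CPM (1.84, SE 0.31, adjusted p = 0.0013). The light-harvesting gene Cab-m7 was at 0.126, 0 and 0 and 2.41, 3.82 and 5.96 CPM (adjusted p = 0.016), a call that ended whichever 10 DAP library was left out (up to 0.067) and with voom. The green maternal markers, given above, moved both ways, with pep1 higher, ssu1 lower and rca1 not passing, and their part in these values was not tested.

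Amino acid metabolism had no common direction, with 5 of 16 tested genes higher and 4 lower (2 and 5 with library totals). The gene lkrsdh1, for the bifunctional enzyme that starts lysine breakdown, had the largest change, from 16.2, 25.9 and 25.8 to 529, 261 and 264 CPM (3.96, SE 0.31, adjusted p = 1.7e-05). The asparagine synthetase gene asn2 rose from 1.52, 3.61 and 2.27 to 12.2, 16.3 and 15.2 CPM (2.57, SE 0.39, adjusted p = 0.00062), while the call of its paralog asn1 as lower (-0.47, adjusted p = 0.016) ended without 10 DAP replicate 2 or 15 DAP replicate 2 or 3 (up to 0.064). Members higher at 15 DAP numbered 3 without 10 DAP replicate 1 and 2 without 10 DAP replicate 2 or 3 or 15 DAP replicate 2 or 3. The count of lower genes was 0 without 15 DAP replicate 3, 1 without 10 DAP replicate 2 or 15 DAP replicate 2, and 2 without 10 DAP replicate 1.

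Hormone genes moved both ways. Of 44 tested auxin genes, 8 rose and 7 fell, which is 34.1% against 31.4% of all genes (6 and 16 with library totals). The influx carrier gene aux1 rose from 2.02, 1.94 and 2.44 to 9.98, 14.3 and 12.4 CPM (2.51, SE 0.26, adjusted p = 5.3e-05), and TAR3, of the first step of auxin synthesis, from 196, 269 and 177 to 547, 983 and 986 CPM (1.97, SE 0.27, adjusted p = 0.00033). The Aux/IAA repressor gene AUX18 fell from 26.9, 23.6 and 24.6 to 4.64, 2.47 and 4.90 CPM (-2.64, SE 0.30, adjusted p = 9.9e-05). Of 27 tested cytokinin genes, 2 rose and 4 fell, or 22.2% (0 and 10 with library totals). The count of higher genes was 1 without 10 DAP replicate 2 or 3 or 15 DAP replicate 2 or 3, and 2 fell without 15 DAP replicate 2. Of 25 genes of abscisic acid, gibberellin and ethylene, 8 rose and 2 fell, or 40% (7 and 8 with library totals). Only 1 of these genes fell without 10 DAP replicate 3 or 15 DAP replicate 2. The abscisic acid receptor gene PYL6 rose from 2.08, 6.21 and 3.68 to 36.3, 65.8 and 47.7 CPM (3.65, SE 0.63, adjusted p = 0.0018). The model that the reference table lists as both aba1 and asr1 fell from 280, 409 and 404 to 152, 173 and 146 CPM (-1.21, SE 0.19, adjusted p = 0.00072).

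Cell wall genes moved both ways. Of 32 tested, 9 rose and 9 fell (5 and 11 with library totals). Of the genes of wall loosening that fell, the expansin gene expa1 went from 194, 298 and 249.8 to 38.5, 39.95 and 35.5 CPM (-2.70, SE 0.25, adjusted p = 3e-05), expB7 from 37.6, 28.2 and 41.1 to 6.48, 6.78 and 8.84 CPM (-2.27, SE 0.26, adjusted p = 8.6e-05) and xet1, for a xyloglucan transferase, from 145, 125 and 144 to 40.9, 16.9 and 33.1 CPM (-2.19, SE 0.32, adjusted p = 0.00054). Another expansin gene, expB2, passed as higher (0.59, adjusted p = 0.012; not without 10 DAP replicate 1, 0.054, nor with library totals). Of the cellulose synthase genes that rose, CesA-5 went from 170.5, 158 and 173 to 428, 399 and 362 CPM (1.25, SE 0.13, adjusted p = 4.7e-05), CesA-3 from 95.3, 103 and 118 to 212, 182 and 182 CPM (0.86, SE 0.16, adjusted p = 0.0017) and CesA-6 by 0.71 (adjusted p = 0.0053; not with library totals). The COBRA-like gene Bk2L6 rose from 13.96, 7.68 and 8.66 to 45.4, 60.1 and 55.5 CPM (2.41, SE 0.25, adjusted p = 5.6e-05).

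Among developmental regulators more genes fell than rose. Of 74 tested homeobox, MADS, YABBY, TCP and inflorescence genes, 31 fell, 5 rose and 38 did not pass, with a median of -0.50 (44 lower and 3 higher with library totals). Without 15 DAP replicate 2 the number that fell was 19. Members higher at 15 DAP numbered 2 without 10 DAP replicate 2 or 15 DAP replicate 1, and 3 without 10 DAP replicate 1 or 3 or 15 DAP replicate 2. Among the more abundant members, zmm6 fell from 825, 871 and 747 to 574, 544 and 505 CPM (-0.59, SE 0.15, adjusted p = 0.011), zmm27 from 379, 429 and 367 to 204, 146 and 189 CPM (-1.12, SE 0.17, adjusted p = 0.00049) and MADS5 from 228, 289 and 231 to 115, 75.8 and 114 CPM (-1.29, SE 0.19, adjusted p = 0.00046). The genes that rose in every one of the 6 fits without 1 library were TCP7 (0.379, 0.401 and 0.108 to 2.12, 7.52 and 5.05 CPM; 4.04, SE 0.59, adjusted p = 0.00046) and the embryo gene wox2A (22.8, 11.8 and 15.1 to 31.9, 33.5 and 28.3 CPM; 0.91, SE 0.21, adjusted p = 0.0069).

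Defence, redox and pigment genes moved both ways, and the shares called below stand against 31.4% of all genes. Of 21 tested protease and defence genes, 7 rose and 6 fell, or 61.9% (7 and 10 with library totals). The ribosome-inactivating protein gene rip1 rose from 3.54, 1.74 and 2.38 to 60.4, 18.9 and 33.8 CPM (3.88, SE 0.74, adjusted p = 0.0032) and the proteinase inhibitor gene MPI from 4.23, 7.42 and 6.61 to 50.1, 38.9 and 42.7 CPM (2.85, SE 0.53, adjusted p = 0.0026). The cysteine protease genes ccp1 (1037, 1422 and 1308 to 481, 373 and 514 CPM; -1.46, SE 0.16, adjusted p = 6.9e-05) and see1 (-1.87, SE 0.26, adjusted p = 0.00031) fell. Of 39 tested genes of oxidative stress, 9 rose and 6 fell, or 38.5% (7 and 17 with library totals), and the number that fell was 2 without 15 DAP replicate 2 and 3 without 10 DAP replicate 1 or 2. Among glutathione transferases, gst5 rose from 33.99, 38.1 and 33.3 to 136, 170.4 and 122.9 CPM (2.03, SE 0.28, adjusted p = 0.00042), and gst11 went from 0.19, 0 and 0 to 0.287, 21.4 and 8.43 CPM (adjusted p = 0.012), with 15 DAP replicate 1 near the 10 DAP level; the call ended with voom. Of 21 tested flavonoid and carotenoid genes, 1 rose and 4 fell, or 23.8% (1 and 7 with library totals), and the number that rose was 3 without 15 DAP replicate 2 and 2 without 15 DAP replicate 3. The flavonoid genes fht1 (35.01, 18.6 and 20.7 to 2.12, 0.37 and 1.01 CPM; -4.39, SE 0.50, adjusted p = 0.00012; -5.11 without 15 DAP replicate 1) and A1 (94.6, 64.4 and 58.9 to 11.9, 20.04 and 24.4 CPM; -1.95, SE 0.36, adjusted p = 0.0023) fell, and BCH2, a beta-carotene hydroxylase gene, rose from 153, 153 and 155 to 490.3, 551 and 459 CPM (1.70, SE 0.15, adjusted p = 2.1e-05). Of 30 tested lipoxygenase and jasmonate genes, 9 fell and 1 rose, or 33.3% (15 and 0 with library totals), and 5 fell without 15 DAP replicate 2 or 3. The count of higher genes was 0 without 10 DAP replicate 1 and 2 without 10 DAP replicate 3. In this list opr6 fell from 22.5, 36.02 and 33.5 to 7.97, 4.75 and 7.78 CPM (-2.16, SE 0.27, adjusted p = 0.00017).

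Water channel genes moved both ways. The plasma membrane genes PIP2-1 (663, 578 and 626 to 1160, 1309 and 1313 CPM; 1.02, SE 0.15, adjusted p = 0.00038) and PIP1-1 (1.33, SE 0.19, adjusted p = 0.0004) rose, and PIP2-4 fell (8.53, 9.42 and 8.45 to 0.803, 2.47 and 0.859 CPM; -2.68, SE 0.55, adjusted p = 0.0035; -3.39 without 15 DAP replicate 2). The vacuolar genes TIP4-4 (19.02, 39.8 and 31.9 to 2.58, 2.34 and 3.54 CPM; -3.41, SE 0.34, adjusted p = 5.3e-05) and TIP2-1 (-1.03, SE 0.21, adjusted p = 0.0036) fell, and TIP3-1 rose from 19.5, 32.1 and 24.6 to 218, 162 and 112 CPM (2.69, SE 0.86, adjusted p = 0.037), a call that ended whichever wild-type library was left out (up to 0.12) and without the filter on low counts. In all, 10 of 39 tested water channel and transporter genes rose and 8 fell (7 and 14 with library totals), and 6 rose without 10 DAP replicate 1.

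Some of the largest changes were in models that the reference table does not name. GRMZM2G437435 fell from 79.5, 115 and 116 to 0.287, 0.493 and 0.202 CPM (-8.31, SE 0.58, adjusted p = 1.3e-05) and GRMZM2G363552 from 30.7, 23.5 and 17.1 to 0.0573, 0.0617 and 0.0505 CPM (adjusted p = 4.7e-06), with 1 count in each 15 DAP library. Maize_newGene_5835 was at 0.695, 1203 and 716 CPM at 10 DAP and at 0, 0 and 0.202 CPM at 15 DAP, so a single 10 DAP library was near the 15 DAP level (log2 fold change -12.93, SE 2.38, adjusted p = 0.0026). That value was -13.55 and -12.12 without 10 DAP replicates 1 and 2 and -16.37 without 15 DAP replicate 3, and voom of limma gave an adjusted p of 0.67. GRMZM2G046520 had 0 counts at 10 DAP and 88.9, 22.7 and 27.2 CPM at 15 DAP, at least 251-fold higher, and at least 135-fold without 15 DAP replicate 1. Altogether 27 called genes had 0 counts in every 10 DAP library, 4 of which reached 5 CPM at 15 DAP, and 16 had 0 counts in every 15 DAP library, 0 of which had reached 5 CPM at 10 DAP. A gene could pass the filter on low counts through its level in L100. Among these genes, GRMZM2G138771 (mean 0.214 CPM at 15 DAP) and GRMZM2G056914 (mean 0.1745 CPM at 10 DAP) stayed near 3 counts per library in wild type. The 1944 tested models named Maize_newGene had 241 higher and 109 lower (18%).

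The same stages were compared in L100, whose libraries are separate. In L100, 6202 genes (24.9%) changed between the stages. Of the genes called in wild type, 3872 were called in L100 in the same direction and 42 in the opposite one. Across the 24941 genes the log2 fold changes of both lines correlated at 0.592 (Pearson) and 0.610 (Spearman), as a description over genes, which are not independent. In the test of the difference itself, 136 genes (0.545%) passed. On the lists used here 9 did, among them MCM6, with a log2 fold change of -2.54 in wild type and -0.21 in L100 (difference -2.33, SE 0.37, adjusted p = 0.029). The count of 136 ranged from 11 to 221 when single libraries were left out and is given by library with the other alternatives.

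**Figure D5:**
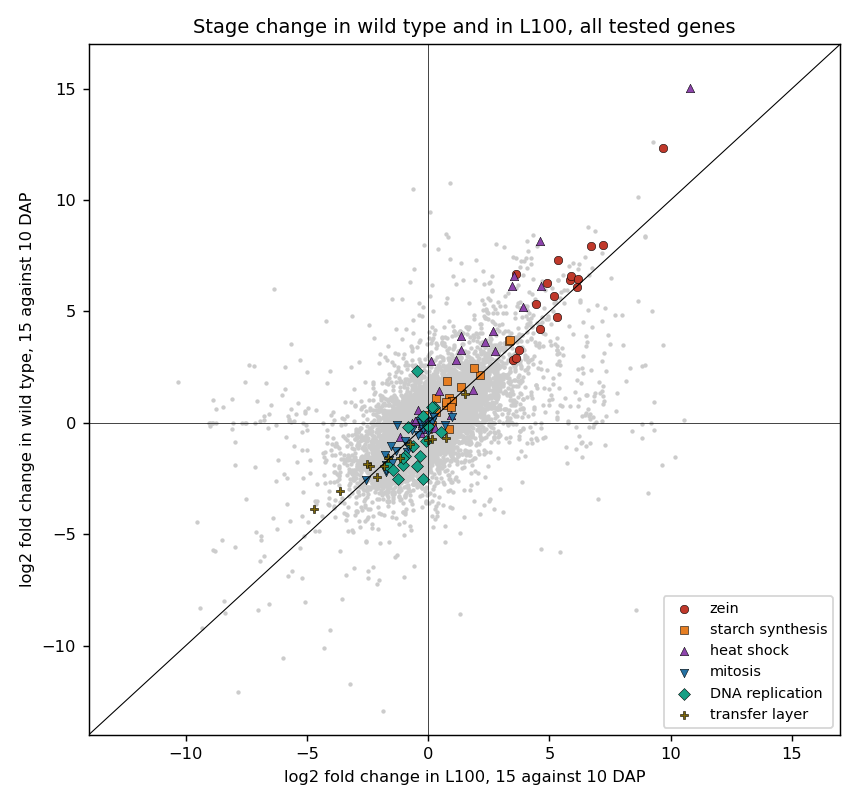
Log2 fold change from 10 to 15 DAP of each of the 24941 tested genes in L100 (horizontal) and in wild type (vertical), grey dots, with members of 6 lists coloured; the diagonal marks equal change. Zein, starch and heat shock genes lie mostly in the upper right and mitosis, DNA replication and transfer layer genes mostly in the lower left, with MCM6 at -0.21 and -2.54.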

How the data were processed

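RNA of whole maize seeds, frozen in liquid nitrogen, was extracted with CTAB and sequenced as Illumina libraries, per the labels' protocols. Bowtie 0.12.2 and the build B73 RefGen_v3 were used, per the submitters' processing notes. Neither the quantifier nor the annotation release, strand setting or origin of the Maize_newGene models is stated there, so reads of overlapping or antisense genes may be shared. Each deposited table lists 41430 models of 1 library with an expected count, written by the authors as a whole number, and an FPKM value. The deposited expected counts were tested. The FPKM values deposited by the authors served only to compare levels between genes.

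Counts of the 12 libraries were filtered together by filterByExpr and scaled by TMM in edgeR 4.0.16 (R 4.3.3). Robust quasi-likelihood fitting used the 12 libraries with a mean for each of the 4 groups. The contrast of 15 minus 10 DAP in wild type was tested for 24941 genes (two-sided, Benjamini-Hochberg adjustment over all of them, threshold 0.05). The genes kept held at least 99.8% of the counts of each library. Adjusted p-values in the text come from this fit unless another tool is named. Floors of 3 counts corresponded to 0.152 to 0.201 CPM in the wild-type libraries and cover counting error only.

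RefSeq's gene table for Zm-B73-REFERENCE-NAM-5.0 supplied names but no coordinates. Of the models, 18021 were matched, 428 of these ambiguously, and 2531 received a name other than a code. The 30 gene lists were built by patterns on these names, with 62 name clashes left out, and hold 805 distinct genes. The members, the lists and the tests were chosen with earlier results of these data known.

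A rule gave 138 genes to name. Among called genes whose stages did not overlap and with at least 5 CPM in the higher stage, it took the 12 strongest increases and the 12 strongest decreases that carry a descriptive name, the 3 strongest of either kind with any name, and the 3 strongest of each list. To these it added the most abundant member of each list, the 10 most counted genes of each stage, and wx1, ae1, sh1, sh2, bt1, bt2, pbf1 and o2. Further list members in the text were picked with their values in view.

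The results were recomputed with DESeq2 1.42.0, with voom of limma 3.58.1, with RLE scaling, with library totals, without a filter, with a stricter filter (5 CPM in 3 libraries), with a block for the replicate number, on the 6 wild-type libraries alone, and without single libraries. The procedure was also run on simulated counts, in which few genes changed, in either direction at random. That setting does not cover the choice between TMM and library totals.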

Additional observations from a re-analysis of the deposited data

Results flagged for a closer look

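For 9 genes of the lists, the test of the difference itself (edgeR's quasi-likelihood test) found that the stage change differed between wild type and L100. The differences below are wild type minus L100 on the log2 scale, and 12 fits each left out 1 library. With voom of limma 5 of the 9 did not pass. CKX5, a cytokinin oxidase gene, changed by -0.12 (wild type) and -1.83 (L100), a difference of 1.71 (adjusted p = 0.023, kept in 6 of 12 fits). MCM6 changed by -2.54 and by -0.21, a difference of -2.33 (adjusted p = 0.029, kept in 6), and MCM7 by -1.94 and by -0.45, a difference of -1.49 (adjusted p = 0.049, kept in 1; 0.06 with voom). The mixed-linkage glucan synthase gene CslF6-1 changed by 1.10 and by -1.33, a difference of 2.43 (adjusted p = 0.041, kept in 3). The allene oxide synthase gene aos2 changed by -1.93 and by 2.47, a difference of -4.40 (adjusted p = 0.042, kept in 2; 0.082 with voom). The cyclin gene cycD2 changed by -0.10 and by 0.68, a difference of -0.78 (adjusted p = 0.042, kept in 2; 0.052 with voom). CesA-5 changed by 1.25 and by 0.30, a difference of 0.95 (adjusted p = 0.045, kept in 2). AUX6 changed by -0.67 and by 0.19, a difference of -0.86 (adjusted p = 0.048, kept in 0; 0.061 with voom). BCH2 changed by 1.70 and by 2.73, a difference of -1.03 (adjusted p = 0.05, kept in 1; 0.055 with voom).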

How the results depend on the processing

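The count of 7836 changed genes was 8760 with DESeq2, 7645 with voom, 7849 with RLE, 9371 with library totals, 7221 without a filter, 7172 with the stricter filter, 9050 with the wild-type libraries alone and 5676 to 6574 without single wild-type libraries. Library totals gave 1997 higher and 7374 lower genes. Without single libraries 2630 to 3427 genes were higher and 2829 to 3230 lower. With the replicate number as a block 7169 genes changed. Deviations from the group means correlated at -0.0745, 0.0272 and 0.00617 between libraries with the same number. Between libraries with different numbers they correlated at -0.0651 to 0.0636. With 3 libraries per group these values cannot decide whether a number marks a shared origin, which the labels do not state. The count of 136 genes whose stage change differed between lines was 1076 with DESeq2, 63 with voom, 74 with library totals and 26 with the block. It ranged from 11 to 221 without single libraries. Leaving out wild-type replicates gave 29 (10 DAP, 1), 11 (10 DAP, 2), 19 (10 DAP, 3), 54 (15 DAP, 1) and 13 (15 DAP, 2). For L100 it was 86, 22 and 221 without 10 DAP replicates 1, 2 and 3, and 22 and 17 without 15 DAP replicates 1 and 2. The cause of these differences was not tested. Of 212 genes followed singly, 179 were called, 132 of them under each of the up to 14 alternatives that gave them a value. No called gene changed direction, while some that did not pass did (Nkd1 from 0.29 to -0.03 with library totals). Genes near the floor of 3 counts carry wide errors, and 3 libraries per group limit the precision.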
